A study of Mus musculus with 12 samples.

Results

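Small nucleolar RNAs and small Cajal body RNAs were followed in mouse colon across genotype and colitis treatment. The members were all rows of the log2 normalized count table whose symbol starts with Snora, Snord or Scarna and a number, which gave 133 of 40050 rows. Of these, 84 were Snord RNAs, 40 were Snora RNAs and 9 were Scarna RNAs. Glul∆Lyz2 mice, in which Lyz2-driven deletion of floxed Glul (glutamine synthetase) is directed to myeloid cells while other colon cells keep the gene, were set against Glul f/f littermates, and each genotype drank water or received DSS (dextran sulfate sodium, which damages the colon epithelium and is used as a colitis model). The 4 groups of 3 libraries are named WT_H2O (Glul f/f on water), KO_H2O (knockout on water), WT_DSS (Glul f/f on DSS) and KO_DSS (knockout on DSS), with WT_DSS libraries numbered 1, 2 and 4 as in their titles. The labels give no dose, days of DSS or age of the animals, nor do they state that each library is a separate animal, so p-values measure the spread between these libraries, which may be technical.

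Small nucleolar RNAs guide the chemical modification of other RNAs in the nucleolus. Box C/D RNAs (Snord) pair with ribosomal RNA and direct ribose methylation by fibrillarin, box H/ACA RNAs (Snora) direct the change of uridine to pseudouridine by dyskerin, and a few of both kinds are needed instead for cutting the ribosomal RNA precursor. Small Cajal body RNAs (Scarna) carry the same boxes, are held in Cajal bodies and guide modification of the spliceosomal small nuclear RNAs. In mammals most of these RNAs are trimmed out of the introns of host genes, many of which encode ribosomal proteins or serve mainly as carriers.

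The boxes were read from the annotated transcript sequences (GENCODE M21, GRCm38), in which all 133 members were found. TGATGA, the core of the C box, stood within the first 20 bases in 55 of 84 Snord, 0 of 40 Snora and 4 of 9 Scarna RNAs. CTGA, the D box, stood within the last 20 bases in 82 of 84 Snord, 4 of 40 Snora and 5 of 9 Scarna RNAs. ACA lay exactly 3 bases from the 3′ end in 33 of 40 Snora, 0 of 84 Snord and 2 of 9 Scarna RNAs, so the labels of the Snord and Snora classes follow the boxes. The H box ANANNA was looked for only in the middle of each RNA, on the transcribed strand as were the other boxes, and is a loose pattern that was found in 37 of 40 Snora and also in 35 of 84 Snord RNAs. The following 7 members are shown because they passed the test for lower levels on DSS, are at most 275 bases long and cover the box types. They are written 5′ to 3′ as DNA letters of the transcribed strand, with the C box TGATGA and the D box CTGA in capitals in the Snord RNAs and Scarna6, and the H box ANANNA and the terminal ACA in capitals in Snora57 and Scarna13, where they were found. In Scarna6 the pattern ANANNA was also found in the middle and is left in lower case.
Snord17: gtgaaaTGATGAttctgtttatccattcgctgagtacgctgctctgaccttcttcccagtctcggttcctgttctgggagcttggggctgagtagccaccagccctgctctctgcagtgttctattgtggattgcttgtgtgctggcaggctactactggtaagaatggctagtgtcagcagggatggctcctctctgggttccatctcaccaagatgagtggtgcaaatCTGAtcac
Snord37: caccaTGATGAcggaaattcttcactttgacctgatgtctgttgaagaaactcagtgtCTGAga
Snord104: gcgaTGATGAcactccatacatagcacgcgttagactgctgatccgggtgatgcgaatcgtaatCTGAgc
Snord22: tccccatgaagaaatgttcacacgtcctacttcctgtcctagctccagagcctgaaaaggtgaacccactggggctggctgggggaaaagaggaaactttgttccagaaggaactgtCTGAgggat
Snora57: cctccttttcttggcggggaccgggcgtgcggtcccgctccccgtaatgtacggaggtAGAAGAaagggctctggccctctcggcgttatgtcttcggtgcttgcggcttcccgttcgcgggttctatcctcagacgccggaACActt
Scarna13: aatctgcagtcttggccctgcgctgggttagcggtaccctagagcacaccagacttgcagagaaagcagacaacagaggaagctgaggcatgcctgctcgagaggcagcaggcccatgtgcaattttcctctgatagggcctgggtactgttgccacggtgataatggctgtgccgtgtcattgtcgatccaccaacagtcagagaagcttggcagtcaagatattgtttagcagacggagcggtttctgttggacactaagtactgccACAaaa
Scarna6: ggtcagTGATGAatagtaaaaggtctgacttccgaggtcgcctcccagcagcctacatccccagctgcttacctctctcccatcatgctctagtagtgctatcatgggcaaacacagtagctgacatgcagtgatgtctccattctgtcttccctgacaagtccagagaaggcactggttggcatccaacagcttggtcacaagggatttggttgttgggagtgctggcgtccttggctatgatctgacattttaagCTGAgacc
Snord17 is at chr2:144265979-144266216 on the minus strand, in an intron of Snx5, and Snord37 is at chr10:81178950-81179013 on the plus strand, in an intron of Eef2. Snord104 is at chr11:106500993-106501062 on the plus strand, Snora57 at chr19:8888538-8888685 on the minus strand, and neither overlaps an exon on its strand. Scarna13 is at chr12:105031075-105031349 on the minus strand, in Snhg10. Snord22 is at chr19:8725866-8725991 on the plus strand, where it overlaps an exon of its non-coding host Snhg1, and TGATGA was not among its first 20 bases. Scarna6 is at chr1:87784556-87784820 on the plus strand, in an intron of Atg16l1, and shows both the C and the D box.

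The libraries held 14.7 to 41.2 M reads, and KO_DSS 3 was the shallowest. Glul had 2261 to 7852 normalized counts in WT_H2O against 7372 to 18267 in WT_DSS, and 1655 to 5618 in KO_H2O against 3273 to 6723 in KO_DSS, and neither difference between genotypes passed (limma adjusted p = 1 on water and 0.952 on DSS). The tissue is whole colon, and all 6 epithelial markers (Epcam, Vil1, Krt20, Car1, Slc26a3 and Muc2) were read in every library. They did not move together. Muc2, the goblet cell mucin, made up most of their sum, with 734900 to 1027160 normalized counts in WT_H2O against 164544 to 435810 in WT_DSS, and 171786 to 718371 in KO_H2O against 148650 to 247577 in KO_DSS. The other 5 summed to 53925 to 215969 in WT_H2O against 55550 to 88914 in WT_DSS, and to 43698 to 133393 in KO_H2O against 51611 to 68698 in KO_DSS. Averaged over genotypes, Muc2 fell by 1.43 ± 0.36 and Epcam rose by 0.48 on the log2 scale (limma adjusted p = 0.0138 and 0.0305), the other 4 did not pass, and the median of the 6 was 0.40. In bulk tissue, fewer cells of a type and less RNA per cell cannot be told apart.

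The whole family was scarce in these libraries. All 133 members together took 0.0248% of the normalized counts on average, with a range of 0.00945% to 0.0400% over the libraries. Scarna RNAs held 59.4% of that sum on average, Snord RNAs 21.7% and Snora RNAs 18.9%. A single RNA, Scarna10, held 37.2%, Scarna2 held 18.2%, Snord17 held 9.40% and Snora74a held 7.08%. The 9 members of 180 bases or more (Scarna10, Scarna2, Snord17, Snora74a, Snora73b, Scarna6, Snora23, Scarna13 and Snora73a) held 79.6%, while the 124 shorter ones had a median mean normalized count of 5.09. The length of 180 bases was chosen after the values were seen, and the longest member below it had 178 bases. Whether recovery of an RNA into these libraries depends on its length was not tested, so these shares describe the libraries only. Per 100 bases of annotated length, the mean normalized count was 756 for Scarna10, 314 for Snord17, 297 for Scarna2, 243 for Snora74a and 94.1 for Snora73b. Among the 5 highest of each class on the same scale, the others were Snord15b with 68.8, Scarna6 with 64.8, Snora23 with 45.4, Snord59a with 32.3, Scarna9 with 30.7, Snora31 with 27.7, Snord15a with 25.8, Snord22 with 23.3, Snora17 with 21.6 and Scarna13 with 13.2. Across all 133 members, length and count per base had a Spearman correlation of 0.19, given as a description, since members share libraries and depth. Length enters both quantities, and 19 members stood at exactly 1 read in every library, so the value does not show that length and level are unrelated.

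Many members lie where their reads cannot be separated from those of a host. By the GENCODE annotation 125 of 133 members lie within a host gene on the same strand, in 89 hosts, and 72 overlap an exon of another gene on that strand. Reads were recovered from the log2 values as whole numbers, but when set against the FPKM values, 96.5% of 1188 member values of 1 to 20 reads lay at or above the fractional reads that the FPKM row gives. Of 468 member values listed at 1 read, 403 had fractional reads under 0.5, with a median of 0.223. A member listed at 1 read may therefore have had less than 1 read assigned to it. In 19 members every one of the 12 libraries stood at exactly 1 read, and all 19 overlap a same-strand exon. Only 44 members reached a mean normalized count of 10 and were tested, namely 21 Snord, 17 Snora and 6 Scarna RNAs. The lowest that passed was Snord49b with 10.03 and the highest that did not was Snord32a with 9.79.

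All 3 classes had lower sums in DSS colon than in water colon, in both genotypes. The Scarna sum was 6190, 6073 and 4048 normalized counts in WT_H2O and 2371, 2534 and 1743 in WT_DSS. In the knockout it was 6131, 5672 and 7059.8 on water and 2814, 1902 and 747 on DSS. Every DSS library lay below every water library of its genotype, and the group means were 2.45-fold lower in Glul f/f and 3.45-fold lower in the knockout. Snora sums were 1419 ± 168 on water and 663 ± 142 on DSS in Glul f/f, and 1651 ± 365 and 787 ± 240 in the knockout (SD, n = 3 each), which is 2.14-fold and 2.10-fold lower. Snord sums were 1835 ± 399 on water and 691 ± 99.1 on DSS in Glul f/f, and 2158 ± 746 and 790.2 ± 88.2 in the knockout (SD, n = 3 each), 2.66-fold and 2.73-fold lower. No test was made on sums over members.

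The long members carried these differences. Members of 180 bases or more summed to 7538 ± 1632 in WT_H2O and 2715 ± 674 in WT_DSS, and to 9009 ± 1637 in KO_H2O and 2413 ± 1350.3 in KO_DSS (SD, n = 3 each). Shorter members summed to 1153 ± 119 and 855 ± 96.1 in Glul f/f, and to 1088 ± 149 and 986 ± 79.4 in the knockout (SD, n = 3 each). On the log2 scale the ratios of DSS to water were -1.47 and -1.90 for the long members and -0.43 and -0.14 for the short ones, in Glul f/f and knockout in that order. Without Snord17 alone, the log2 ratio of the Snord sum was -0.45 in Glul f/f and -0.18 in the knockout. Without Snora74a and Snora73b, that of the Snora sum was -0.51 and -0.29. The Scarna sum without Scarna10 and Scarna2 still had log2 ratios of -1.57 and -1.43, and this remainder holds the long Scarna6 and Scarna13.

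**Figure D1:**
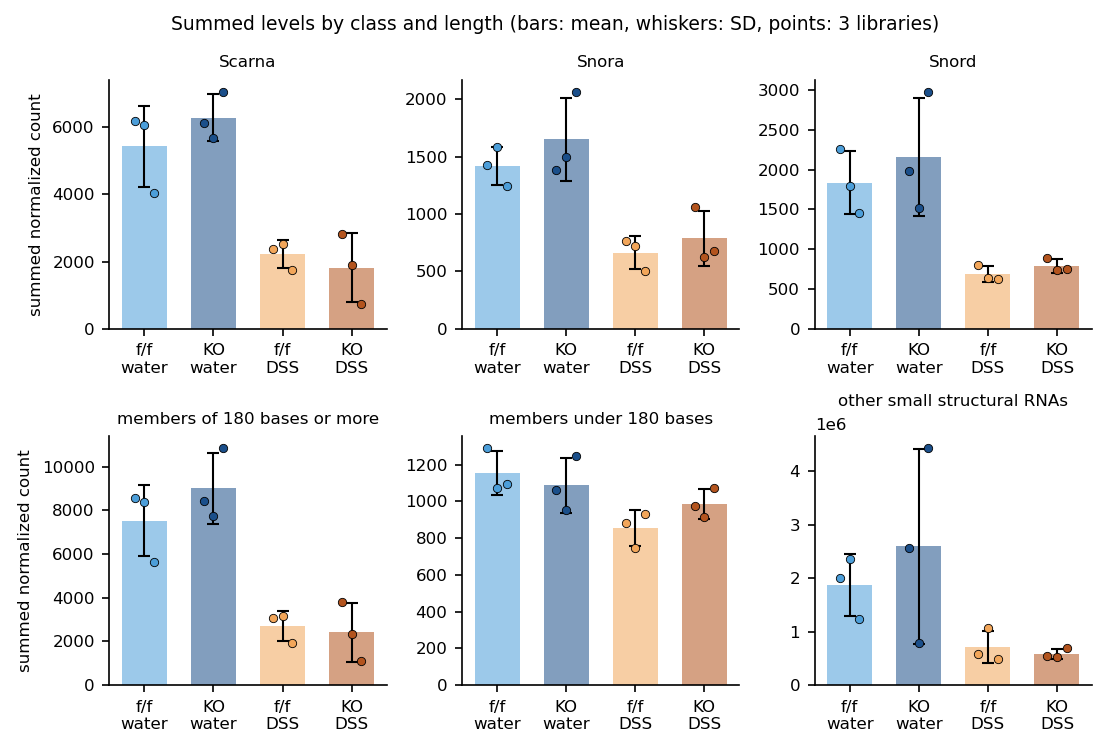
Summed normalized count by group (bars, mean of 3 libraries; whiskers, SD; points, libraries) for the 3 classes, for members of 180 bases or more, for shorter members and for the other small structural RNAs, each on its own linear axis in normalized counts. The long members stood at 5657 to 10855 on water and 1097 to 3795 on DSS, while the shorter members stood at 955 to 1290 on water and 747 to 1070.5 on DSS.

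Averaged over both genotypes, 11 of the 44 tested members fell on DSS and 0 rose (limma, adjusted p under 0.05 over all 23263 genes tested). Over all genes 14.6% were called lower and 13% higher in the same comparison. The 11 comprised 4 of 6 Scarna, 4 of 21 Snord and 3 of 17 Snora RNAs, and 6 of the 9 long against 5 of the 35 short members. The median log2 change was -0.48 over the 44 members, with 30 of them negative, against -0.07 over all genes. By class the median was -1.71 for Scarna, -0.56 for Snora and -0.36 for Snord RNAs. In Glul f/f alone 3 members fell and 0 rose, where 2.58% of all genes were called lower and 2.16% higher. In the knockout alone 4 fell and 0 rose, where 5.71% of all genes were called lower and 5% higher. Groups did not overlap in 14 members that were lower on DSS in Glul f/f and 0 that were higher, against 17.2% and 16.9% of all genes, and in 16 lower and 2 higher members in the knockout, against 16.7% and 14.7%. Without WT_H2O 1 or WT_H2O 2, 0 members were called in Glul f/f, and without KO_H2O 1, 0 were called in the knockout. In both genotypes at once 11 members lay lower without overlap, as did 9.2% of all genes. Of these 11 members 10 were called and the other was Snord71, while Scarna13 was called but its groups overlapped in Glul f/f.

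**Figure D2:**
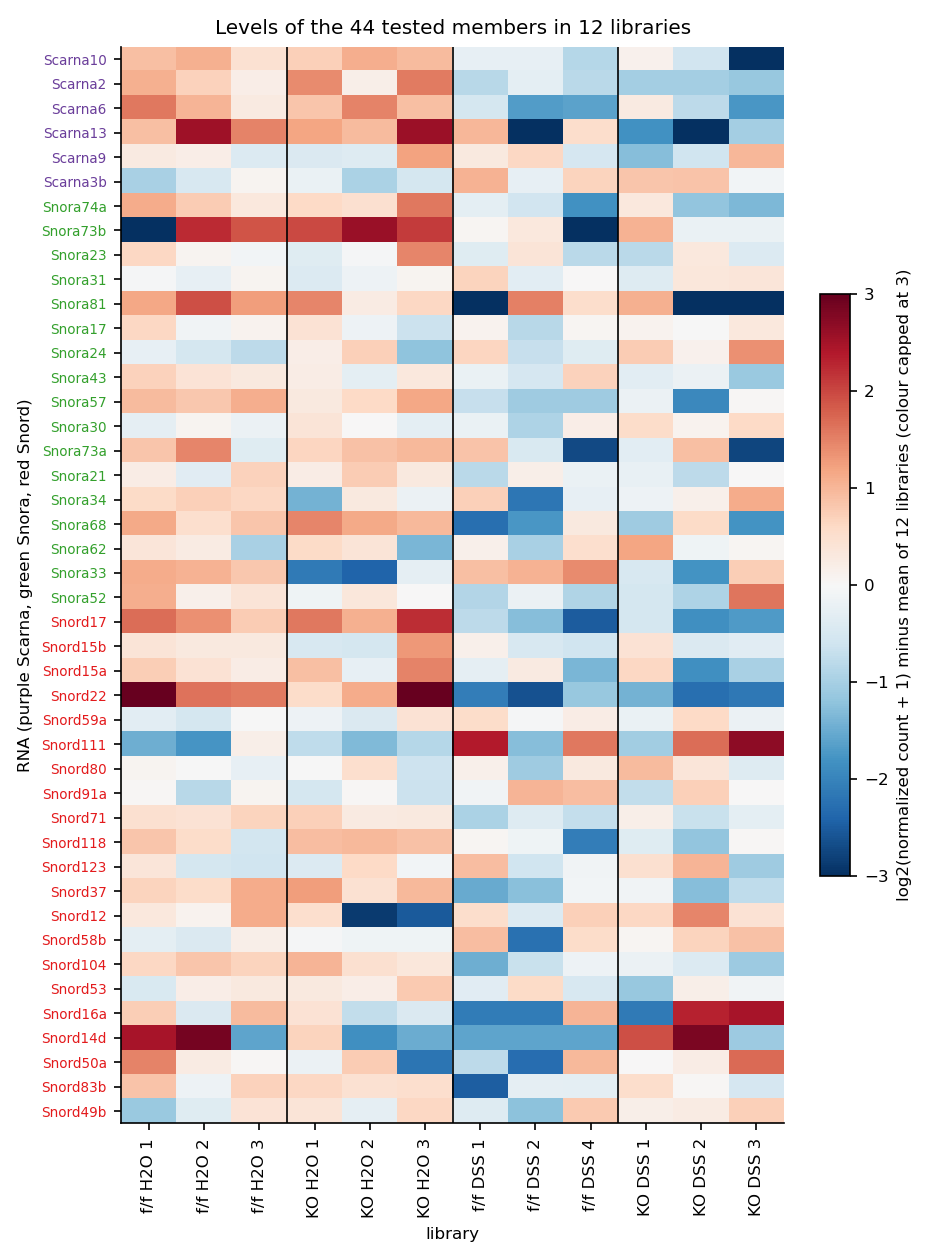
Levels of the 44 tested members (rows, by class) in the 12 libraries (columns), as log2(normalized count + 1) minus the member's mean over the libraries, with colour capped at 3. The rows of Snord17, Snord22, Scarna2 and Scarna6 change from mostly red on water to mostly blue on DSS, while most short Snord and Snora rows show no such block, and Snora73b, Snora81, Snord14d and Snord16a switch between high and nearly absent within groups.

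The Scarna class held the members with the highest normalized counts in these libraries, which need not rank the classes by their amount in the tissue. Scarna10, known in human as U85, is a composite RNA with both C/D and H/ACA parts that guides modification of the U5 small nuclear RNA. It had 3662, 4086 and 2681 normalized counts in WT_H2O against 1634, 1649 and 1079.7 in WT_DSS, and 3204, 4129.6 and 3743 in KO_H2O against 2132, 1302 and 188 in KO_DSS. All 6 DSS libraries were below all 6 water libraries, and KO_DSS 3, with 120 reads of this RNA, stood far below the other two of its group. The log2 change averaged over genotypes was -1.72 ± 0.47 (SE, limma adjusted p = 0.0186). In the knockout alone it was -2.19 ± 0.66 (SE, limma adjusted p = 0.0538), and without KO_DSS 3 it was -1.14 (limma adjusted p = 0.0325).

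Scarna2, a box C/D RNA that in human guides methylation of the U2 small nuclear RNA and has its own promoter, was the only one of the leading Scarna RNAs without a host gene in the annotation. Its values were 2072, 1588 and 1131 in WT_H2O against 553, 806 and 558 in WT_DSS, and 2626, 1118 and 2899 in KO_H2O against 488, 482 and 448 in KO_DSS. The KO_DSS libraries lay close together and below all others, and the call in the knockout, given below, was lost without KO_H2O 1 (limma adjusted p = 0.0584). Averaged over genotypes it fell by 1.70 ± 0.25 on the log2 scale (SE, limma adjusted p = 0.00121). The change was called in the knockout (-2.11 ± 0.35, SE, limma adjusted p = 0.00938) and missed the threshold in Glul f/f (-1.30 ± 0.35, SE, limma adjusted p = 0.0539), and the difference between these was itself not called (interaction -0.81 ± 0.49, SE, limma adjusted p = 0.9998).

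Scarna6, the composite RNA called U88 in human, was measured at 382, 261 and 155 in WT_H2O against 88.3, 39.0 and 41.2 in WT_DSS, and 227, 362 and 241 in KO_H2O against 153, 73.4 and 37.6 in KO_DSS. Only KO_DSS 1 came near the lowest water library. It fell in Glul f/f (log2 change -2.23 ± 0.52, SE, limma adjusted p = 0.0391) and in the knockout (-1.83 ± 0.52, SE, limma adjusted p = 0.0458). Both calls lay near the threshold, and they were lost in 8 and 9 of the 12 fits that left out 1 library and with voom (adjusted p = 0.0554 and 0.0993). Both were also lost without the filter on mean count. The Glul f/f call was lost with the replicate block (limma adjusted p = 0.0739). The knockout call was lost with the FPKM table (limma adjusted p = 0.0503), quantile normalization and sample weights. Scarna13, the tandem H/ACA RNA known as U93, had 32.4, 102 and 49.4 in WT_H2O against 34.5, 0 and 24.7 in WT_DSS, and 39.9, 33.2 and 106 in KO_H2O against 4.03, 0 and 7.83 in KO_DSS. WT_DSS 1 overlapped the water values, and both libraries listed at 0 allow up to 2.49 (WT_DSS 2) and 4.08 (KO_DSS 2) normalized counts at a limit of 3 reads, which covers counting error only. The averaged log2 change was -3.22 ± 0.89 (SE, limma adjusted p = 0.0204), and the call was lost without WT_H2O 2 or without KO_H2O 3, where the adjusted p rose to at most 0.0526.

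Of the other 5 Scarna RNAs, 2 were tested and neither was called. Scarna9 ranged from 13.9 to 45.1 on water and from 7.26 to 39.1 on DSS, with an averaged log2 change of -0.15 ± 0.49 (SE). Scarna3b was the only tested Scarna RNA with a positive value, 1.01 ± 0.45 on the log2 scale (SE, limma adjusted p = 0.114). Scarna17, Scarna8 and Scarna3a averaged 6.21, 2.73 and 2.66 normalized counts and were not tested.

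**Figure D3:**
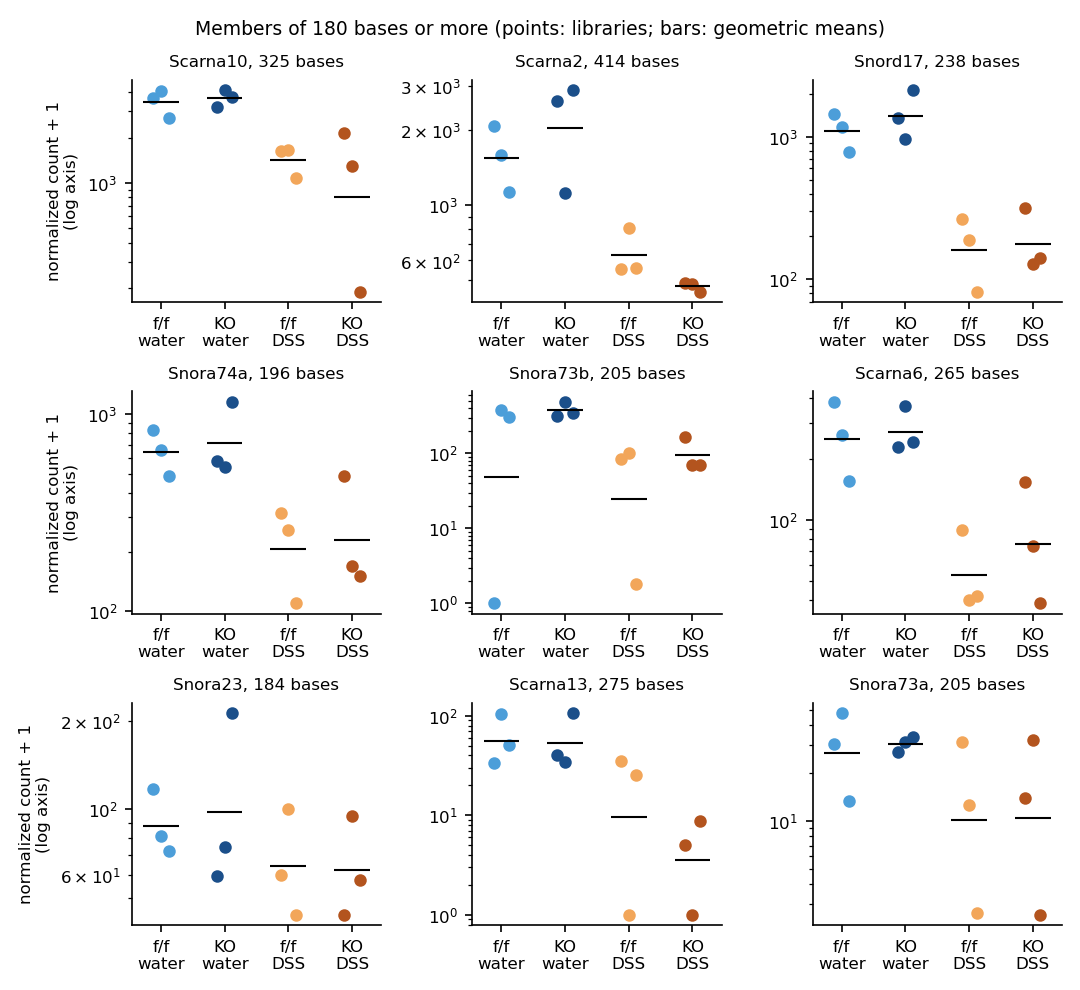
Normalized count + 1 (log axis, 1 scale per panel) of the 9 members of 180 bases or more in each library (points) of the 4 groups, with the geometric mean of each group as a bar. Scarna10, Scarna2, Snord17, Snora74a and Scarna6 were lower in every DSS library than in every water library of the same genotype, while Snora73b held 1 water library at 0.

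Among box C/D RNAs the smallest p was that of Snord17, which in human guides methylation of the large-subunit ribosomal RNA. Normalized counts were 1451, 1176 and 776 in WT_H2O against 263, 187 and 80.7 in WT_DSS, and 1359.6, 964 and 2123 in KO_H2O against 314, 126 and 139 in KO_DSS. The highest DSS library was below the lowest water library by more than the whole spread of the DSS values. The log2 change was -2.79 ± 0.48 in Glul f/f (SE, limma adjusted p = 0.0180) and -2.98 ± 0.48 in the knockout (SE, limma adjusted p = 0.00938), and the averaged change of -2.88 ± 0.34 was 7.38-fold lower (SE, limma adjusted p = 0.00069). The Glul f/f call was lost without WT_H2O 1 or WT_H2O 2 and with the replicate block (limma adjusted p = 0.0607). The knockout call was lost without KO_H2O 1 (limma adjusted p = 0.0530).

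Snord22, or U22, is required for processing of the small-subunit ribosomal RNA in Xenopus. It had 127, 33.7 and 32.1 in WT_H2O against 1.68, 0.83 and 4.12 in WT_DSS, and 15.6, 23.2 and 108 in KO_H2O against 3.23, 1.36 and 1.57 in KO_DSS. All DSS libraries held 1 to 5 reads, where a listed read may be a rounded-up fraction, and all water libraries held 18 or more. The change was called in Glul f/f (-4.17 ± 0.85 on the log2 scale, SE, limma adjusted p = 0.0290) and in the knockout (-3.58 ± 0.85, SE, limma adjusted p = 0.0257). These calls were lost in 5 and 3 of the 12 fits that left out 1 library, with voom (adjusted p = 0.124 and 0.207) and with the replicate block (limma adjusted p = 0.0844 and 0.0513). The knockout call was also lost with quantile normalization. The averaged change, -3.88 ± 0.60 (SE, limma adjusted p = 0.00163), was called in all 12 fits.

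Snord37 and Snord104, both methylation guides for the large-subunit ribosomal RNA in human, were low but regular. Snord37 had 15.8 to 28.6 normalized counts over the 6 water libraries and 3.36 to 10.7 over the 6 DSS libraries, and Snord104 had 14.4 to 23.4 and 3.36 to 9.88. Neither overlapped between treatments. Averaged log2 changes were -1.66 ± 0.44 (SE, limma adjusted p = 0.0172) for Snord37 and -1.32 ± 0.42 (SE, limma adjusted p = 0.0360) for Snord104. Leaving out 1 library ended the call of Snord37 in 1 of 12 cases (KO_H2O 1, adjusted p = 0.0521) and that of Snord104 in 8, with an adjusted p of at most 0.0947. Of the abundant Snord RNAs that did not pass, Snord15b and Snord15a, a pair in the same host Rps3, had averaged log2 changes of -0.43 ± 0.34 and -1.18 ± 0.49 (SE), and Snord59a had 0.32 ± 0.33 (SE). Nearest to the threshold were Snord71 at -0.95 ± 0.35 (SE, limma adjusted p = 0.0617) and Snord111 at 2.0 ± 0.79 (SE, limma adjusted p = 0.0800), the highest value of any tested member. Snord111 had 2.06 to 10.7 normalized counts on water, and on DSS it had 53.0, 3.32 and 30.5 in Glul f/f and 4.03, 32.6 and 65.7 in the knockout, with 1 low library in each DSS group.

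Among box H/ACA RNAs, Snora74a, known as U19, was the most abundant. It had 834, 655 and 482 in WT_H2O against 313, 257 and 109 in WT_DSS, and 580.1, 537 and 1157 in KO_H2O against 482, 168 and 150.2 in KO_DSS. KO_DSS 1 reached the level of WT_H2O 3, and otherwise DSS and water did not mix. The averaged log2 change was -1.63 ± 0.36 (SE, limma adjusted p = 0.00768). Snora57 had 22.5 to 42.3 on water and 4.08 to 18.8 on DSS, and its averaged change was -1.63 ± 0.41 (SE, limma adjusted p = 0.0141). Snora68 had 11.7 to 23.4 on water and 0.84 to 12.2 on DSS, with 1 or 2 reads in 3 DSS libraries, and its averaged change was -2.01 ± 0.60 (SE, limma adjusted p = 0.0286), a call that 5 of the 12 single-library omissions ended (adjusted p at most 0.0695). Snora23, Snora31 and Snora17, also among the most abundant per length, had averaged log2 changes of -0.56 ± 0.37, 0.23 ± 0.30 and -0.09 ± 0.33 (SE), and none passed.

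By exact two-sided permutation of treatment within each genotype, the averaged difference gave p = 0.005 for 10 of the 11 called members, the smallest value this design allows, and p = 0.01 for Scarna13. Snord71, which was not called, also had p = 0.005 by this permutation. The permutation values are not adjusted, and the called members were chosen on the same libraries, so the values add no separate support. A comparison of 3 with 3 libraries cannot go below 0.1 by the same test.

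Of the RNAs known for cutting the ribosomal RNA precursor rather than modifying it, Snord22, described above, was called and the other tested ones were not. Snord118, or U8, which is needed for maturation of the large-subunit RNA in Xenopus, had 9.06 to 27.95 on water and 2.47 to 14.3 on DSS, with an averaged log2 change of -1.21 ± 0.49 (SE, limma adjusted p = 0.0868). Snora73b and Snora73a, the U17 pair that shares the host Snhg3, had averaged changes of -1.49 ± 1.41 and -1.48 ± 0.73 (SE), and neither passed. Snora73b was listed at 0 in WT_H2O 1, at 382 and 299 in the other two of that group and at 316 to 488 in KO_H2O, and it had 83.3, 98.8 and 0.82 in WT_DSS and 166, 69.3 and 68.9 in KO_DSS. In the knockout its groups did not overlap, but the change there was not called (-2.0 ± 2.0 on the log2 scale, SE, limma adjusted p = 0.528). Rows of U14, required for small-subunit processing in yeast, were present, and Snord14d was tested. Its values were 29.6, 39.2 and 0.82 in WT_H2O against 0.84, 0.83 and 0.82 in WT_DSS, and 7.80, 0.53 and 0.96 in KO_H2O against 20.2, 38.0 and 1.57 in KO_DSS, so 7 libraries stood at 1 read and the others far above it. Snord14c, Snord14e and Snord14a averaged 3.58, 0.92 and 0.72, Snord13 (U13) averaged 3.52, and Snora62 (E2) averaged 10.2 with an averaged log2 change of 0.26 ± 0.55 (SE).

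Of the imprinted clusters, whose RNAs are known mainly from brain, 4 rows were among the members. Snord64 and Snord107 averaged 0.74 and 0.54 normalized counts and never exceeded 1 read, and Snord116l6 and Snord116l13 had 1 read in 1 library each.

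Change on DSS went with length among the tested members. The Spearman correlation of annotated length with the averaged log2 change was -0.51 over the 44 members, and that of mean level with the change was -0.43, both given as descriptions over RNAs that share the same libraries. Length and level were not separated from each other. All 9 long members had negative values, with a median of -1.70, while the 35 short members had a median of -0.17, with 21 negative. Called members occurred with and without exon overlap: 6 of 23 tested members with no exon overlap and 5 of 20 with a same-strand overlap were called lower.

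**Figure D4:**
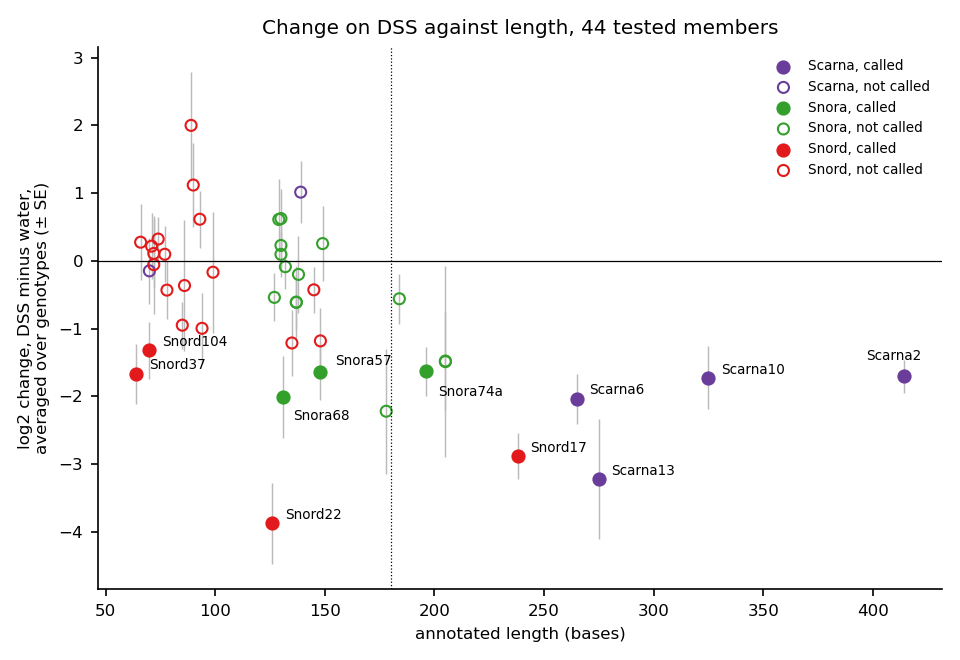
Averaged log2 change on DSS (y axis, log2(normalized count + 1) scale, ± SE) against annotated length in bases (x axis) for the 44 tested members, filled where called, with a dotted line at 180 bases. All 9 members right of the line lie below 0, and the shorter members spread on both sides, from -3.88 for Snord22 to 2.0 for Snord111.

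Changes of the small RNAs and of their host genes showed no common order. A tested host was available for 37 tested members, in 35 host genes, and over these pairs the averaged log2 changes of RNA and host had a Pearson correlation of -0.09, given as a description. Host genes had a median change of 0.02, with 6 of 35 called higher and 2 lower, where 13% of all genes were called higher and 14.6% lower. Snord17 fell while its host Snx5 rose by 0.89 ± 0.19 on the log2 scale (SE, limma adjusted p = 0.00669), from means of 2006 and 2049 normalized counts on water to 3544 and 3946 on DSS. Snord37 fell together with its host Eef2, a translation elongation factor, which changed by -0.82 ± 0.19 (SE, limma adjusted p = 0.00951). For Scarna10 in Ncapd2, Scarna6 in Atg16l1 and Snord22 in Snhg1 the host changes were 0.05 ± 0.33, -0.27 ± 0.14 and -0.07 ± 0.24 (SE), and none passed. The difference between RNA and host was not tested.

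**Figure D5:**
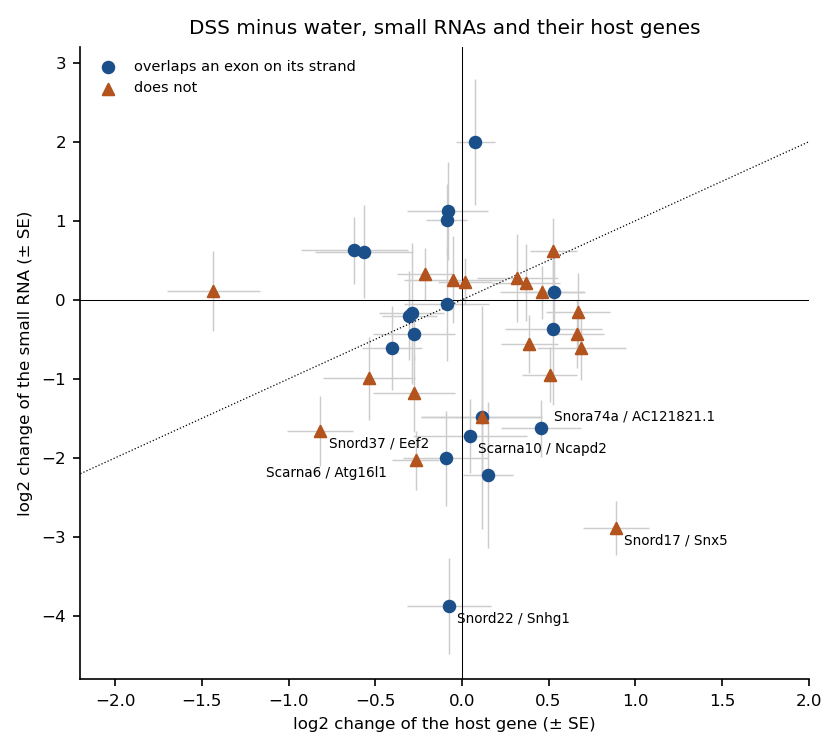
Averaged log2 change on DSS of 37 small RNAs (y axis) against that of their host genes (x axis), each ± SE, with circles for RNAs that overlap an exon on their strand, triangles for the rest, the dotted line of equal change and names for 6 called members and their hosts. Of the 37 RNAs, 24 lie below the line, and Snord22 and Snord17 lie farthest below it.

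Of 31 tested proteins that assemble, process or accompany these RNAs, 6 rose and 4 fell averaged over genotypes, where 13% of all genes rose and 14.6% fell. Of 5 listed proteins of box C/D particles, 0 rose and 1 fell. The latter was Rrp9 (-0.86 ± 0.21 on the log2 scale, SE, limma adjusted p = 0.0129), which belongs to the U3 particle and is not a core protein of the others. Fbl, the methyltransferase, had a change of 0.37 ± 0.15 (SE, limma adjusted p = 0.0820). The other core proteins Nop56, Nop58 and Snu13 did not pass either (limma adjusted p = 0.959, 0.0532 and 0.870). Of 4 core proteins of H/ACA particles, Dkc1, the pseudouridine synthase, rose by 0.91 ± 0.20 (SE, limma adjusted p = 0.00756) and Nop10 fell by 1.0 ± 0.27 (SE, limma adjusted p = 0.0198). Of 15 tested assembly and end-processing factors 2 rose (Tgs1 and Papd5) and 1 fell (Pih1d1). Of 7 Cajal body and nucleolar proteins, Smn1, Ncl and Npm1 rose, by 1.51, 1.52 and 0.90, and Wrap53, which brings Scarna RNAs to Cajal bodies, fell by 0.88 ± 0.21 (SE, limma adjusted p = 0.0103).

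Other small structural RNAs outside the naming rule were also mostly lower on DSS, with negative averaged changes in 19 of 24 tested. Of 24 tested, among them Rn7sk, Rmrp, Rpph1, Terc and the U3 copies, which are box C/D RNAs themselves, 11 fell and 0 rose averaged over genotypes, with a median log2 change of -1.50. Among the U3 copies only a row of Rnu3a and a row of Rnu3b2 passed. Their changes were -3.38 ± 1.17 and -4.89 ± 1.08 (SE, limma adjusted p = 0.0494 and 0.00771). The other rows of these symbols had 0.61 and 0.67 and did not pass. The called Rnu3b2 row had 101, 0 and 0 normalized counts in WT_H2O. Rnu1b1 and Rnu1b2 also had positive changes that did not pass. The sum of the other small structural RNAs was 2.62-fold lower on DSS in Glul f/f. In the knockout it was 4.47-fold lower, or 2.89-fold lower without KO_H2O 3. The near-identical Rn7s1 and Rn7s2 made up 67.2% to 88.9% of that sum in each library. Set against that sum, the members stood at 0.481% ± 0.0757 in WT_H2O against 0.542% ± 0.158 in WT_DSS, and at 0.582% ± 0.453 in KO_H2O against 0.609% ± 0.281 in KO_DSS (SD over 3 libraries), so the ratio differed between treatments by less than its spread. The rRNA-like genes Gm42418 and Gm26917 were lower on DSS too, with averaged log2 changes of -1.79 ± 0.43 and -1.41 ± 0.43 (SE, limma adjusted p = 0.0109 and 0.0321). Of 8 leukocyte marker rows 4 rose on DSS (Ptprc, S100a8, S100a9 and 1 of 2 Itgam rows) and 0 fell, with a median log2 change of 0.78. Their sum was 2342 to 3760 normalized counts in WT_H2O against 3519 to 6773 in WT_DSS, and 1718 to 6524 in KO_H2O against 3247 to 6056 in KO_DSS, and Itgam, S100a8 and S100a9 were listed at 0 in at least 1 library, and of the 6 epithelial markers given above 1 rose and 1 fell. All 3 smooth muscle markers had negative averaged changes, with a median of -0.81, and none passed. Their sum was 28963 to 196834 in WT_H2O against 45388 to 55022 in WT_DSS, and 86050 to 138562 in KO_H2O against 38891 to 92813 in KO_DSS. Plasma cell markers and nerve and glia markers had medians of -1.48 and -0.63, and none passed. In this design the part of these shifts in the members' changes and that of DSS itself cannot be told apart. With the level of the other small structural RNAs as a covariate, 0 members and 0 of all genes were called in any comparison, 6 of 44 members and 14.6% of all genes (3396 of 23263) had an unadjusted limma p under 0.05 on average over genotypes, and the members' median was -0.51.

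Knockout and Glul f/f colon did not differ in any member past the threshold. On water 0 of 44 members and 0% of all genes were called, and at an unadjusted limma p under 0.05 there were 2 members, Snora33 and Snord12, and 757 genes. On DSS 0 members and 0% of all genes were called, and at an unadjusted p under 0.05 there were 0 members and 1215 genes. For the interaction 0 members and 0% of all genes were called, and Snord14d alone (4.95 ± 1.93 on the log2 scale, SE, limma adjusted p = 0.9998) was among 640 genes with an unadjusted p under 0.05. The voom alternative also called 0 members in each of these.

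The members with the smallest p between genotypes were mostly RNAs with some libraries near 1 read. On water Snora33 had 16.7, 15.8 and 13.2 normalized counts in Glul f/f and 0.87, 0.53 and 5.76 in the knockout, which did not overlap (-2.59 ± 0.83 on the log2 scale, SE, limma adjusted p = 1). On DSS it had 14.3, 15.8 and 20.6 in Glul f/f and 4.84, 1.36 and 12.5 in the knockout (-1.63 ± 0.83, SE, limma adjusted p = 0.960), again without overlap. Snora33 overlaps an exon of its host Rps12, and 3 of its 6 knockout libraries stood at 1 read. Snord12, with 12.95, 11.01 and 23.1 in WT_H2O and 14.7, 0.53 and 0.96 in KO_H2O, had 2 libraries at 1 read. Snora34, Snord14d and Snora73b followed on water at -1.06 ± 0.80, -2.14 ± 1.36 and 2.95 ± 2.0 (SE). Snord14d, Snord16a, Snora30 and Snora24 stood at 2.81 ± 1.36, 1.95 ± 1.26, 0.73 ± 0.48 and 0.89 ± 0.61 on DSS (SE). For the interaction the next in order were Snord12 at 2.70 ± 1.24, Snora34 at 2.0 ± 1.14 and Snord50a at 2.48 ± 1.45 (SE).

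By class the ratios between genotypes were small. The log2 ratio of knockout to Glul f/f was 0.21 on water and -0.28 on DSS for the Scarna sum, 0.22 and 0.25 for the Snora sum, and 0.23 and 0.19 for the Snord sum, and the libraries of both genotypes overlapped in every class and treatment.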

How the data were processed

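Total RNA of mouse colon was sequenced on an Illumina HiSeq instrument, per the labels' protocols. The authors deposited log2 normalized counts and log2 FPKM (fragments per kilobase, scaled to depth), and the submitters' processing notes name STAR, GRCm38 and mm10. For the counter, its strand setting and the annotation, nothing was stated in the sources at hand. A further FPKM table was not used, and 4 of its columns match no sample. The log2 values have the form log2(normalized count + 1): divided by the step of a library, 100% of values were whole at a tolerance of 0.01, with 1 read worth 0.527 to 1.57 normalized counts. Without known strand use, members that overlap other genes, and both rows of Snora16a and of Snord80, are uncertain.

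The 23263 of 40050 genes that averaged 10 or more normalized counts entered a limma 3.58.1 model (R 4.3.3; lmFit, contrasts.fit, eBayes with trend) on log2(normalized count + 1), which understates changes of low genes. All 12 libraries entered 1 fit with 8 residual and 3.86 prior degrees of freedom. The 6 comparisons were adjusted by Benjamini-Hochberg over all genes tested, with calls at 0.05. The fit was checked on simulated data with large planted changes and normal noise of limited spread. That check does not cover members that switch between nearly absent and high within a group. Positions and sequences came from GENCODE M21. The host of 1 called member is not reported here. Alternatives covered filters, scaling, pseudocount 5, the FPKM table, sample weights, voom on the recovered reads, a replicate block, a covariate and leaving out each library. Named RNAs were the called members, or the 5 with the smallest p where fewer than 5 were called, the 5 most abundant per length in each class, and those with special roles or imprinted clusters. Members and lists were chosen with earlier results of these data known.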

Additional observations from a re-analysis of the deposited data

How the results depend on the processing

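The direction of every called change held under each alternative. The 11 members lower on DSS averaged over genotypes became 5 with a minimum mean of 50, where 8 members were tested, and 0 with the other small structural RNAs as a covariate, where no gene was called. They became 15 with the FPKM table, 14 with sample weights and 13 without a filter. Snord104 was lost without a filter and with quantile normalization, voom and the replicate block, and Snora68 with quantile normalization. Leaving out 1 library gave 8 to 14. Scarna10, Scarna2, Scarna6, Snora57, Snora74a, Snord17 and Snord22 were called in all 12 of these, Snord104 was lost in 8, Snora68 in 5, Scarna13 in 2 (KO_H2O 3 and WT_H2O 2) and Snord37 in 1 (KO_H2O 1). In Glul f/f the 3 became 8 with the FPKM table, 7 with sample weights, 2 without a filter and 1 with voom. There were 0 with the covariate and 0 to 4 on leaving out 1 library. Without WT_H2O 1 or WT_H2O 2 there were 0 in Glul f/f, and without WT_H2O 3, WT_DSS 1 or WT_DSS 2 there was 1. In the knockout the 4 became 2 with voom, 0 with the covariate and 0 to 6 on leaving out 1 library. With the FPKM table and with sample weights there were 6 each, of which 3 were among the 4. Without KO_H2O 1 there were 0 in the knockout, and without KO_DSS 2 or KO_H2O 3 there were 2. The cause of these shifts was not tested.

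The log2 ratio of the Snora sum on DSS became -1.46 in Glul f/f and -1.54 in the knockout with a minimum mean of 50. That of the Snord sum became -1.71 in Glul f/f with a minimum of 10, added after seeing the data, -2.31 and -2.51 with a minimum of 50, which leaves fewer short members, and -0.94 and -0.80 in the FPKM table, which weights short RNAs up. Quantile normalization moved the median of all genes in the knockout comparison from -0.10 to 0.01 and left 4 members called there, of which 2 were among the 4.

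With the replicate number as a block, 0 members were called in Glul f/f, 3 in the knockout and 10 averaged over genotypes. Same-numbered libraries deviated with correlations from -0.18 to 0.24, and 2 of 12 libraries correlated best with one of their own number, so the numbers were not taken to pair the libraries. Depth limits the 89 untested members, and values near 1 read cannot be told from rounding.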
